A study of Rattus norvegicus with 24 samples.

Results

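The GABA-A receptor subunit genes Gabra2, Gabra4, Gabra5, Gabra6, Gabrb1, Gabrb2 and Gabrd were taken by gene symbol from the platform annotation, as all probe sets with 1 of these 7 symbols and no other. That gave 11 probe sets of the 8799 in the deposited table, for 7 of 4736 named genes, and all 11 were among the 7389 probe sets bright enough to be tested. Total RNA of whole rat brain had been measured on 24 single-colour oligonucleotide arrays. The 12 controls breathed halothane for 3 min and were then perfused with cold saline, so they too had met an anaesthetic. The 4 exposed groups of 3 arrays each had exposures of 90 min, 2 per day with 3 h of recovery between them. These were 5 exposures over 2.5 days or 10 exposures over 5 days, to either 0.8% halothane or 1.0% isoflurane. The sources used here give no strain, age, sex or time from last exposure to tissue collection. Nothing in the labels ties the arrays of a group to different animals. Each p-value therefore reflects only how far these samples scatter, and part of that scatter may be technical.

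GABA-A receptors are chloride channels built from a ring of subunits around a pore, most often alpha and beta subunits together with a gamma or a delta subunit, and they carry most fast inhibition in the brain. The alpha subunit sets much of the receptor's affinity for GABA and its place in the brain, and receptors with alpha4, alpha5, alpha6 or delta lie largely outside synapses, where they respond to ambient GABA. Volatile anaesthetics such as halothane and isoflurane prolong or raise the current through these receptors, and sites in the membrane-spanning part of alpha and beta subunits take part in that action. Whether transcripts of the subunits differ after repeated exposure is the question that the comparison of exposed with control brains addresses here.

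The genes lie partly in clusters. In the RefSeq order of the rat assembly GRCr8, Gabrb1 was next to Gabra4 among protein-coding genes, Gabra6 next to Gabrb2, and Gabra2 next to Gabrg1, while Gabrd had no other subunit gene beside it. The proximal promoters, 250 bases before to 50 after the annotated start (RefSeq, GRCr8), were found for 6 of 7 genes. In G and C content Gabra5 (76.3%, 42 CpG pairs), Gabrd and Gabra4 were high. Gabrb1 (49.3%), Gabrb2 (44%) and Gabra6 were under the median of all promoters. Gabra6, whose probe set varied most among the brighter alpha probe sets below, had a promoter with 42.3% G and C and 0 CpG pairs, against a median of 51.7% and 7 over 33469 promoters. Gabrd, a subunit also at home in cerebellar granule cells, had 73.7% and 40, and Gabra4, a subunit of thalamus, striatum and dentate gyrus, had 70.7% and 35. These 3 are shown because, as described below, Gabra6 varied widely between arrays, while Gabra4 and Gabrd differed in opposite directions with the spike-in level of the arrays. Capitals mark the letters searched on both strands.

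Gabra6, chr10:27327185-27327484, - strand: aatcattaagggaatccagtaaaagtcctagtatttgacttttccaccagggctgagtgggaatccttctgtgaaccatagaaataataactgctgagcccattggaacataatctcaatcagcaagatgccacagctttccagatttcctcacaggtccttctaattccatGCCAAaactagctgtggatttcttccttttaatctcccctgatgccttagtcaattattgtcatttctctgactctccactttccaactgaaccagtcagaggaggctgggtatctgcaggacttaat

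Gabrd, chr5:171252660-171252959, - strand: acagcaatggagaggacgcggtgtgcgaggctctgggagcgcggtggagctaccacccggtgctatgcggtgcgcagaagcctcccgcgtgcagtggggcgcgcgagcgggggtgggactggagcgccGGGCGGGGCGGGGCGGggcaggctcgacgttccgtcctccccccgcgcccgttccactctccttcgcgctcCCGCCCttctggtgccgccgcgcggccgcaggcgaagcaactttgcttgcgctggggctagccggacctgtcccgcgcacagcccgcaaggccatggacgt

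Gabra4, chr14:36944497-36944796, + strand: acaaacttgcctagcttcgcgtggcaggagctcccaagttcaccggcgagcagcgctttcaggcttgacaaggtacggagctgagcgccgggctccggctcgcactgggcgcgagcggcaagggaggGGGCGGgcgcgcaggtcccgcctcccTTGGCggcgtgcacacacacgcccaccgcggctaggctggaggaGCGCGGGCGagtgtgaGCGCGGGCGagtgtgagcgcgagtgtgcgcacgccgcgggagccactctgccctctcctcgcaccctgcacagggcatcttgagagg

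Searched were TTGGC, a short site of NFI factors, which are known to act on Gabra6 in granule cells, GGGCGG, the GC box, TATAAA, the TATA box, and GCGNGGGCG, a pattern of the EGR zinc finger family, whose member Egr3 is known to act on Gabra4. Gabra6 had 1 TTGGC match and 0 of the others. Gabrd had 4 GC boxes, 3 of which overlap in 1 run, and Gabra4 had 1 TTGGC match, 1 GC box and 2 GCGNGGGCG matches. Over all promoters TTGGC was in 45.8%, GGGCGG in 33.1%, TATAAA in 14.2% and GCGNGGGCG in 4.98%. A match describes these letters only.

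Signals are given on the linear scale of the deposited table, and each probe set is compared only with itself, since the brightness of different probes does not rank genes. Values under 16.5, the 25th percentile of the table, were set to that floor before log2 was taken. Limma's p-values were corrected over all 7389 probe sets, and a difference counts as called below 0.05. Where 2 probe sets stand for a gene, the one with the higher mean signal is described first. In whole tissue, fewer cells of a type and less RNA per cell cannot be told apart.

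Bacterial RNAs had been spiked into the samples. The arrays were divided by the mean log2 signal of the 9 spike-in probe sets, at its widest gap between arrays, 0.57. That left 9 with a high signal (5 controls and replicate 3 of each exposed group), from 9.60 to 10.48. The 15 with a low signal (7 controls and the other exposed arrays) ran from 7.78 to 9.03. Both sides spread wider than the gap, so the 2 levels rest on where the cut was placed. The labels do not say what this spike-in level marks, and it is no group of the study. Several subunits moved with it, so it is given beside them.

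Gabra2, an alpha subunit of forebrain synapses, had a control signal of 91.0 at the lowest, 156 at the median and 231 at the highest of 12 arrays. It was 152.6, 156.2 and 97.5 on the 3 arrays after 5 halothane exposures and 179.9, 147.7 and 103.4 after 10. After isoflurane it was 176.5, 158.8 and 135.2 with 5 exposures and 152.4, 198.2 and 98.8 with 10. All 12 exposed arrays lay within the control range, and in each exposed group the lowest array was replicate 3. The log2 fold changes against control were -0.24, -0.16, -0.006 and -0.12 in this order, each with a standard error (SE) of 0.24 and none called.

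Gabra4, the alpha partner of delta in thalamus and dentate gyrus, had a control range of 63.9 to 192 with a median of 149. Its signal was 152.9, 168.8 and 109.6 after 5 halothane exposures and 185.4, 143.0 and 67.0 after 10, then 152.9, 168.2 and 66.5 after 5 isoflurane exposures. After 10 isoflurane exposures it was 139.3, 125.5 and 59.0, and replicate 3 there was the only exposed array below every control. The log2 fold change after 10 isoflurane exposures was -0.45 (95% interval -1.12 to 0.23, adjusted p = 0.728), and the other 3 lay between -0.20 and 0.039. The second probe set of Gabra4 was dim, above the floor on 7 of 12 control arrays, and had fold changes between -0.07 and 0.36 on the floored log2 scale. It was below the floor on replicate 3 of every exposed group, at 9.0, 9.2, 13.9 and 6.8, while the other 8 exposed arrays ran from 28.9 to 77.4.

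Gabra5, the alpha subunit of extrasynaptic receptors in hippocampal pyramidal cells, ran from 69.1 to 153.6 in control with a median of 112.3. Signals were 163.7, 122.9 and 113.7 after 5 halothane exposures, 136.4, 150.7 and 58.8 after 10, 135.5, 153.1 and 78.4 after 5 isoflurane exposures and 158.7, 118.6 and 57.3 after 10. Replicate 1 lay above every control after 5 halothane and 10 isoflurane exposures, and replicate 3, the lowest of each exposed group, lay below every control on both courses of 10 exposures. All groups overlapped. The log2 fold changes were 0.23, -0.08, 0.07 and -0.13, each with an SE of 0.30. Its second probe set was near the floor, above it on 13 of 24 arrays, and no level is read from it.

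Gabra6, which in the brain is made almost only by cerebellar granule cells, had a wide control range, from 166.1 to 990.0 with a median of 589. After 5 halothane exposures the signal was 806.6, 481.9 and 577.2, and after 10 it was 857.7, 1014.1 and 1036.2. The 3 arrays after 10 halothane exposures were high together, and 2 of them lay above every control while the third lay inside the control range. Isoflurane gave 668.1, 541.5 and 609.6 with 5 exposures and 848.4, 440.2 and 874.5 with 10, all within the control range. Control arrays averaged 564 ± 269 (SD, n = 12) and those after 10 halothane exposures 969 ± 97.3 (SD, n = 3). On the log2 scale the difference was 0.98 ± 0.41 (SE, 95% interval 0.13 to 1.82). Limma's unadjusted p was 0.025 and the adjusted p 0.613, so the difference was not called. In the other exposed groups the log2 fold change was 0.31, 0.30 and 0.49, and over all 4 it was 0.52 (95% interval -0.01 to 1.05, unadjusted p = 0.056, adjusted p = 0.586). In the order of the group means, 10 halothane exposures stood first, and its gap of 248 to the next group, 10 isoflurane exposures, was just above the larger SD of that pair, 244. All other neighbours in the order were closer than their spread. Among low spike-in arrays alone the log2 fold change after 10 halothane exposures was 0.47 (adjusted p = 0.628). The other 3 turned negative there, at -0.12 after 5 halothane, -0.17 after 5 isoflurane and -0.14 after 10 isoflurane exposures, and the value over all 4 groups was 0.010. Over all arrays but without controls 10 to 12 the value after 10 halothane exposures was 0.71 (adjusted p = 0.59). With the spike-in level kept as a term in the fit of all arrays it was 0.94 (adjusted p = 0.428). In that fit the value after 10 isoflurane exposures was 0.45.

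**Figure D1:**
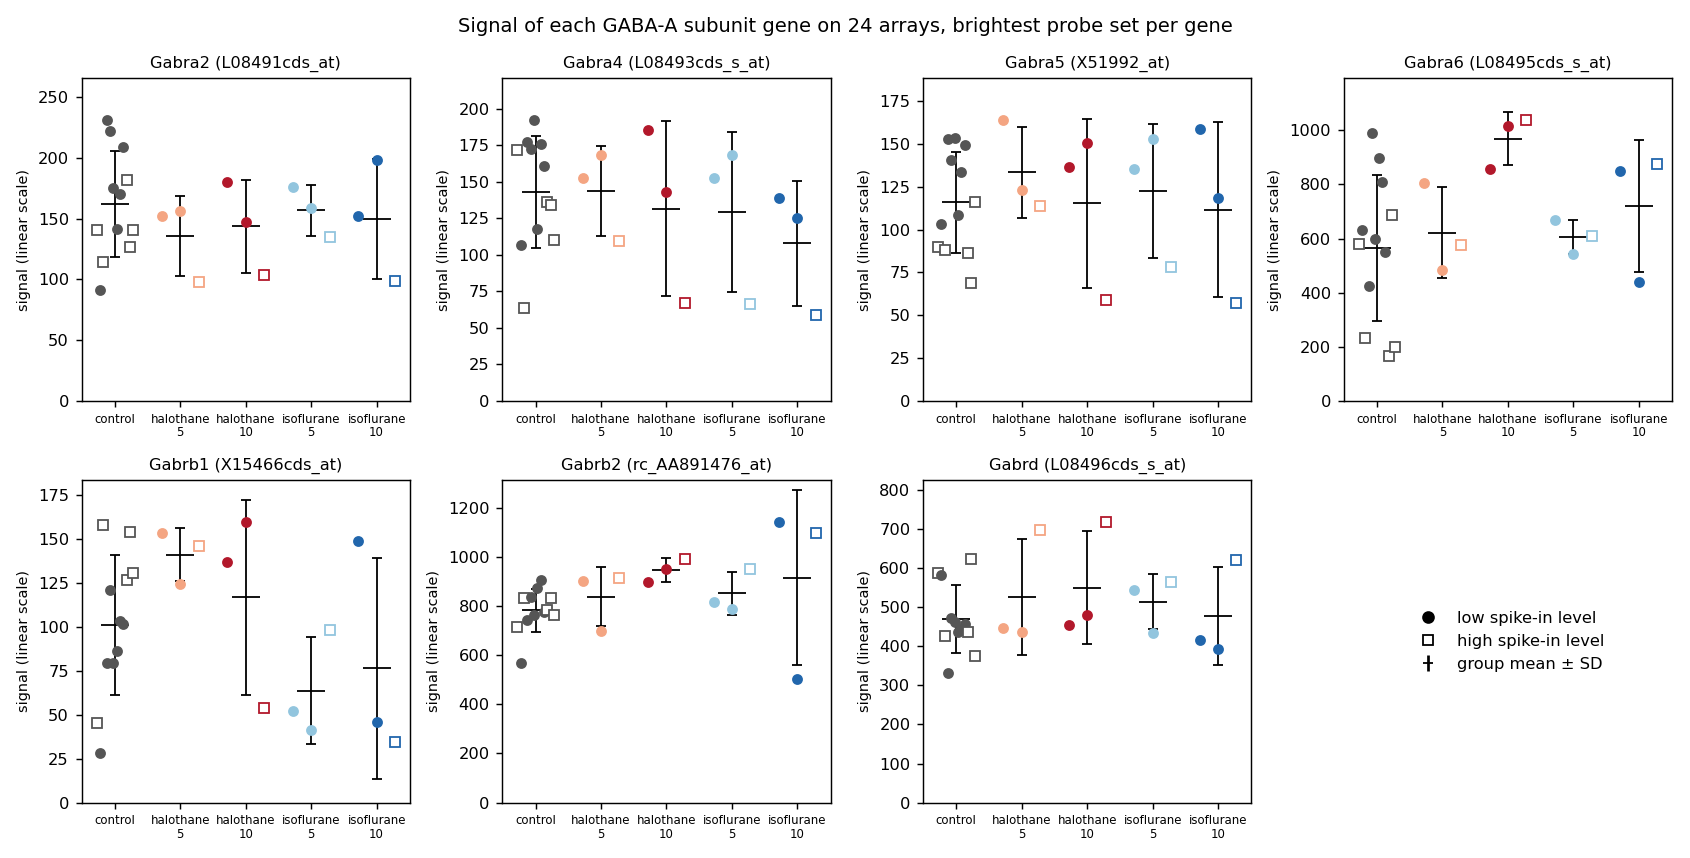
Signal of the brightest probe set of each of the 7 subunit genes on 24 arrays (vertical axes, linear scale, each from 0), by group on the horizontal axis; filled circles are low and open squares high spike-in arrays, and bars are the group mean ± SD. Gabra6 on the 3 arrays after 10 halothane exposures runs from 857.7 to 1036.2, and the open squares of the exposed groups are the lowest points for Gabra2, Gabra4 and Gabra5 and the highest for Gabrd.

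Gabrb1, a beta subunit, varied about as much between arrays of a group as between groups. Its control signal ran from 28.4 to 158.0 with a median of 102.4. After 5 halothane exposures it was 153.2, 124.0 and 145.9, and after 5 isoflurane exposures 51.8, 41.0 and 98.1, so these 2 groups did not overlap. Both groups lay within the control range, and how many of all probe sets separate these 2 groups was not counted. The log2 difference of halothane from isoflurane at 5 exposures was 1.24 ± 0.56 (SE, 95% interval 0.08 to 2.41), with an unadjusted p of 0.0376 and an adjusted p of 1. At 10 exposures the 2 agents overlapped, with 136.7, 159.4 and 53.7 for halothane and 148.7, 46.0 and 34.2 for isoflurane. Against control the log2 fold changes were 0.62 and 0.20 for halothane and -0.63 and -0.57 for isoflurane, each with an SE of 0.45. The interaction of agent and exposure number was -0.47 (95% interval -2.12 to 1.18).

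Gabrb2, a beta subunit of the commonest receptor type, had signals of 568 to 905 in control with a median of 779. Of the 12 exposed arrays 6 lay above every control and 1 below every control. The 3 arrays after 10 halothane exposures were close together at 896.1, 952.2 and 992.3, while those after 10 isoflurane exposures were 1141.0, 504.8 and 1098.1, the highest and lowest values of all 24 arrays. The log2 fold changes were 0.10, 0.28, 0.13 and 0.14 with an SE of 0.16, and 0 were called. The second probe set, made from the coding sequence, had a control signal of 68.1 ± 23.9 (SD, n = 12) and log2 fold changes of -0.40, 0.31, 0.08 and 0.08. After 5 halothane exposures the estimates of the 2 probe sets had opposite signs, each with an interval that includes 0.

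Gabrd, which encodes the delta subunit of extrasynaptic receptors, was measured by 2 bright probe sets. The brighter one ran from 330 to 624 in control with a median of 450.0, and was 445.6, 436.1 and 698.5 after 5 and 454.7, 478.7 and 717.3 after 10 halothane exposures. With isoflurane it was 543.7, 434.5 and 563.8 after 5 and 416.6, 393.8 and 621.3 after 10 exposures. Replicate 3 was the highest array in all 4 exposed groups, and on both halothane courses it alone lay above every control. Log2 fold changes were 0.15, 0.22, 0.14 and 0.014, each with an SE of 0.18.

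The second Gabrd probe set, the least variable of the 11, ran from 225 to 320 in control. It was 329.5, 280.0 and 416.8 after 10 isoflurane exposures, where 2 arrays lay above every control. That difference was 0.30 ± 0.14 on the log2 scale (SE, 95% interval 0.01 to 0.59, unadjusted p = 0.0423, adjusted p = 0.519). The other log2 fold changes of this probe set were 0.25 and 0.26 after 5 and 10 halothane exposures and 0.018 after 5 isoflurane exposures. Over the 4 exposed groups together it was 0.21 ± 0.09 (SE, unadjusted p = 0.0268, adjusted p = 0.519). Replicate 3, the high spike-in array, was the highest in all 4 exposed groups. Among low spike-in arrays alone the value was 0.048 over the 4 groups and 0.12 after 10 isoflurane exposures.

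Over the 4 comparisons with control, 0 of 44 estimates passed the threshold. Before correction 2 were below 0.05, Gabra6 after 10 halothane and the second Gabrd probe set after 10 isoflurane exposures. Of all 7389 probe sets, 0.0135% were called after 5 and 0.0406% after 10 halothane exposures and 0% after either isoflurane course, while 7.52% and 9.05% were below 0.05 before correction after 10 exposures of halothane and isoflurane. With 1 of 11 members each, the subunits' count stood near that background. In each of the 4 comparisons 7 of 11 probe sets were above 0 on the log2 scale, where the share over all probe sets was 48.1% and 43.7% after 5 and 10 halothane and 51.5% and 49.5% after 5 and 10 isoflurane exposures. Counted by gene, with the brightest probe set of each, 6 and 4 of 7 were above 0 after 5 and 10 halothane exposures and 4 and 3 of 7 after 5 and 10 isoflurane exposures. These comparisons share the 12 controls. For the mean of the 4 exposed groups, 0 of 11 were called (0% of all probe sets), with 1 below 0.05 before correction (8.44% of all).

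In each exposed group 0 of 11 probe sets had all 3 arrays above every control, and 0 of 11 had all 3 below. The 3 arrays of the brighter Gabrb2 probe set after 10 isoflurane exposures were all outside the control range, 2 above it and 1 below. Over all probe sets the share with all 3 arrays above every control was 0.122% and 0.595% after 5 and 10 halothane exposures, and 0.135% and 0.487% after 5 and 10 isoflurane exposures. The share with all 3 below was 0.23%, 0.528%, 0.0947% and 0.433% in the same order. The 95% interval lay inside a log2 change of -1 to 1 in 30 of the 44 estimates. The other 14 intervals reached further and were all 4 of Gabra6, of Gabrb1 and of the dim Gabra4 probe set, and 1 each of the bright Gabra4 and the second Gabrb2 probe set.

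**Figure D2:**
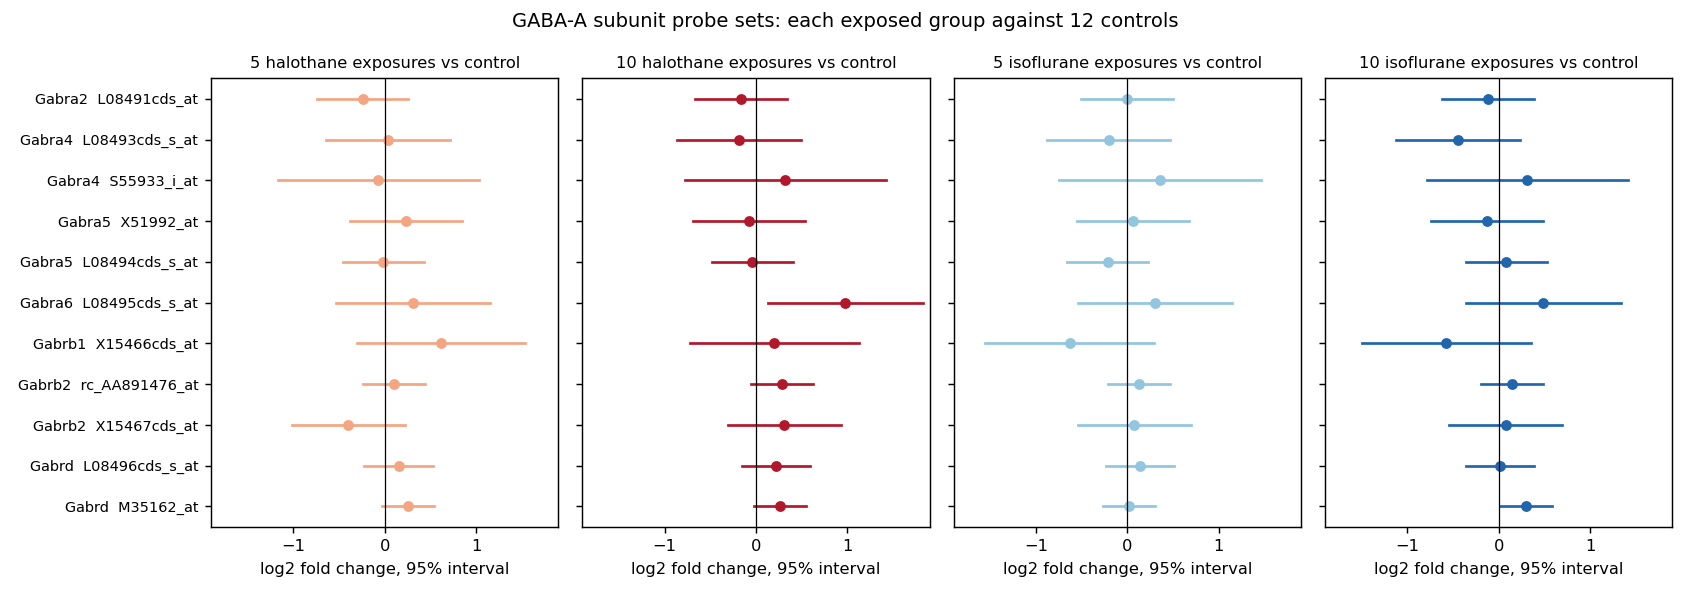
Log2 fold change (horizontal axes) of the 11 subunit probe sets (vertical axis) in each exposed group against 12 controls (4 panels); points are limma estimates and lines 95% intervals. The intervals of Gabra6 after 10 halothane exposures (0.13 to 1.82) and of the second Gabrd probe set after 10 isoflurane exposures (0.01 to 0.59) stay above 0, and neither passed after correction.

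The agents were set side by side at the same exposure count, though their concentrations differed. At 5 exposures 0 of 11 subunit probe sets were called (0.0135% of all probe sets), Gabrb1 being the 1 with an unadjusted p under 0.05 (2.98% of all). At 10 exposures 0 of 11 were called (0% of all), with Gabra6 at 0.49 (95% interval -0.58 to 1.56) and Gabrb1 at 0.77 (-0.39 to 1.94). Between 10 and 5 exposures 0 of 11 were called for halothane (0.0135% of all) and 0 for isoflurane (0% of all). For the interaction of agent and exposure number 0 of 11 were called (0% of all). In the last 4 of these comparisons 0 of 11 were below 0.05 before correction in limma. The share over all probe sets is not given for these 4, so nothing is read from that count. The intervals are too wide to show that the agents act alike on these transcripts.

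The spread between arrays of a group was unequal among the subunits. Among 5139 probe sets above the floor on all 24 arrays the median within-group SD was 0.28 on the log2 scale. Gabrb1 had 0.75 and Gabra6 0.70, wider than 98.3% and 97.5% of those probe sets. The first Gabra4 probe set had 0.54, the first Gabra5 probe set 0.49 and Gabra2 0.40. For Gabrb2 it was 0.27 in the brighter and 0.48 in the second probe set, and for the Gabrd probe sets 0.30 and 0.22.

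Gabra2, Gabra4 and Gabra5 were lower on arrays of the high spike-in level. With group kept in the fit, the high arrays differed from the low arrays by -0.44 ± 0.13 (SE, adjusted p = 0.0194) for Gabra2 on the log2 scale. For Gabra4 the difference was -0.72 ± 0.16 (adjusted p = 0.00214) and -1.39 ± 0.20 (adjusted p = 4.55e-05) in its 2 probe sets, and for the bright Gabra5 probe set -0.75 ± 0.12 (adjusted p = 9.45e-05). Gabrd went the other way, by 0.30 ± 0.10 (adjusted p = 0.0367) in its brighter probe set and 0.17 ± 0.08 (adjusted p = 0.178) in the other. Hence 4 of 11 subunit probe sets were lower and 1 higher at the high level, against 12.3% and 7.67% of all 7389. Not called were Gabra6 at -0.51 ± 0.25 (adjusted p = 0.157), Gabrb1 at 0.08 ± 0.30 and the dim Gabra5 probe set at -0.20 ± 0.14. The brighter Gabrb2 probe set was at 0.14 ± 0.10 and the other at -0.39 ± 0.18 (adjusted p = 0.133), neither called.

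In the 12 controls alone, 5 high against 7 low, the bright Gabra5 probe set was lower at the high level by -0.59 ± 0.15 (SE, adjusted p = 0.0478), 1 of 11 members where 1.96% of all probe sets were lower and 1.54% higher. Its high-level controls ran from 69.1 to 115.9 and its low-level controls from 103.2 to 153.6. The dim Gabra4 probe set was at -1.18 ± 0.31 (adjusted p = 0.0517) and Gabra6 at -1.11 ± 0.35 (adjusted p = 0.099), neither called. Gabra2 was at -0.29 (adjusted p = 0.475) and the bright Gabra4 probe set at -0.40 (adjusted p = 0.344). The Gabrd probe sets were at 0.10 ± 0.15 and -0.057 ± 0.10, the second with a sign opposite to that over 24 arrays. Gabra6 behaved differently in the exposed arrays, where the 4 high arrays ran from 577.2 to 1036.2 and the 8 low arrays from 440.2 to 1014.1. That difference between controls and exposed arrays was not tested.

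**Figure D3:**
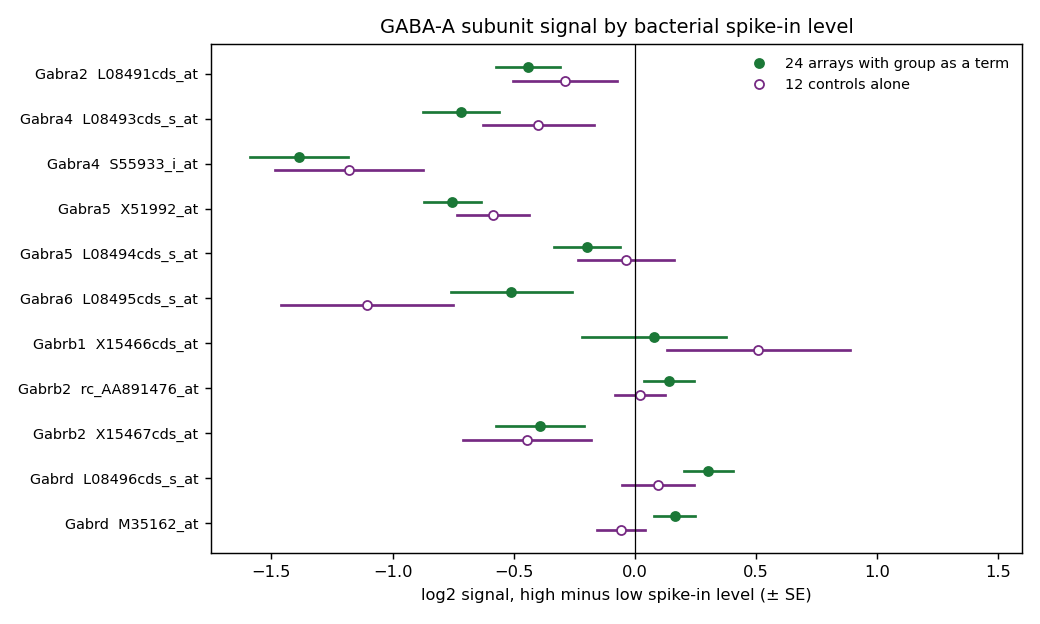
Difference in log2 signal, high minus low spike-in arrays (horizontal axis, ± SE), for the 11 subunit probe sets (vertical axis); filled points are 24 arrays with group as a term, open points the 12 controls alone. The points of Gabra4 and Gabra5 lie left of 0 and those of the brighter Gabrd probe set (0.30 and 0.10) right of 0.

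Among the other genes of GABA transmission the spike-in level went with differences in both directions. Of the 7 tested genes of GABA synthesis, packaging, uptake and breakdown 2 were lower and 1 higher at the high level, beside 12.3% and 7.67% of all probe sets. Gad2, a GABA-synthesising enzyme, was at -1.27 ± 0.17 (SE, adjusted p = 1.54e-05), Abat, which breaks GABA down, at -0.24 ± 0.08 (adjusted p = 0.0456), and Slc32a1, the vesicular GABA transporter, at 0.35 ± 0.06 (adjusted p = 0.000508). Gabrg1, a gamma subunit, was the 1 of 6 other subunit genes that was called, at -0.66 ± 0.14 (adjusted p = 0.00237). Of the 6 chloride genes 3 were lower, among them Slc12a5, the neuronal chloride exporter, at -0.47 ± 0.10 (adjusted p = 0.00237). Of the 7 scaffold and modulator genes Gabarap, which binds gamma subunits, was higher by 0.25 ± 0.06 (adjusted p = 0.00249). In the 12 controls alone Gad2 was the 1 of these called, at -1.17 ± 0.28 (adjusted p = 0.0368), where 1.96% of all probe sets were lower. These genes were picked for mention after their values were seen.

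Gabra6 ran with other genes of cerebellar granule cells. Of 14 other granule cell markers listed, 8 were tested, and none of these 8 was at or under the floor on every control. Several of them, such as Calb2 and Kcnd2, are also made elsewhere in the brain. Their summed signal ran from 1447 to 3312 in control, 2280 to 2987 after 5 and 2444 to 3859 after 10 halothane exposures, and 2433 to 2866 after 5 and 2075 to 4052 after 10 isoflurane exposures. The 3 controls with the lowest Gabra6, at 166.1, 197.5 and 231.8, had marker sums of 1447, 1781 and 2017, while the control with the highest, 990.0, had 2530.

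Across the 15 low spike-in arrays, with all groups pooled, the log2 signal of Gabra6 followed the mean log2 signal of the 8 markers with Pearson's r = 0.85 (permutation p = 0.00013, adjusted 0.00078) and Spearman's rho = 0.80 (permutation p = 0.00067, adjusted 0.00804). Across the 9 high arrays r was 0.96 (exact permutation p = 0.000121, adjusted 0.00078) and rho 0.83 (exact permutation p = 0.00827, adjusted 0.0331). Without the 2 arrays farthest from the Gabra6 median of each level, r was 0.79 and 0.92. Markers of Purkinje cells, another cerebellar cell type, stood at 2386 to 3607 in control (summed signal of 5 markers). Their sum was 3243 to 3672 after 5 and 3571 to 4891 after 10 halothane exposures. With isoflurane it was 3358 to 3622 after 5 and 3164 to 4749 after 10. Medians after 10 exposures were 4253 and 4256. Marker sums from outside the cerebellum differed as well. The choroid plexus median was 4063 in control and 5085 and 5587 after 10 halothane and 10 isoflurane exposures. For endothelium and blood these medians were 484, 346 and 339. The part of cerebellar tissue in the Gabra6 difference was not tested.

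**Figure D4:**
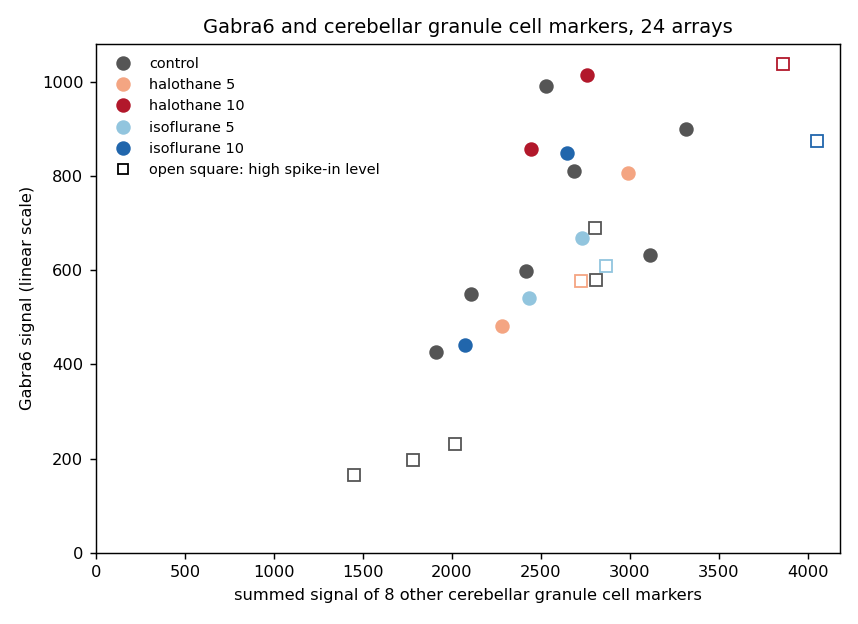
Gabra6 signal (vertical axis) against the summed signal of 8 other cerebellar granule cell markers (horizontal axis) on 24 arrays, both on a linear scale from 0, coloured by group; open squares are high spike-in arrays. The 3 arrays with a Gabra6 signal of 166.1 to 231.8 are controls with low marker sums, and the 2 arrays with the highest sums, 3859 and 4052, are replicate 3 after 10 halothane and 10 isoflurane exposures.

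Gabrd, known from granule cells and forebrain, was set against Gabra6 in the same way. Across the 15 low arrays r was 0.40 (permutation p = 0.145, adjusted 0.291; rho = 0.47, permutation p = 0.0756, adjusted 0.182). Across the 9 high arrays r was 0.92 (exact permutation p = 0.00226, adjusted 0.00679), with rho = 0.75 (exact permutation p = 0.0255, adjusted 0.0765). Without the 2 farthest arrays r was 0.12 and 0.88.

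The 2 probe sets of Gabrd were compared in the same way. They had r = 0.91 on the 9 high arrays (exact permutation p = 0.00181, adjusted 0.00679; rho = 0.90, exact permutation p = 0.00203, adjusted 0.0122; r = 0.93 without 2 arrays) and 0.37 on the 15 low arrays (permutation p = 0.175, adjusted 0.3; rho = 0.20, permutation p = 0.465, adjusted 0.519; r = 0.049 without 2 arrays). For the 2 Gabrb2 probe sets r was -0.016 on the low and 0.39 on the high arrays, and neither passed after adjustment over the 12 relations computed. The pairs of Gabra4 and Gabra5 are not read, since the second probe set was at or under the floor on 8 and 6 of the 9 high arrays.

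Genes with the most similar pattern were sought among 3130 genes above the floor on all 24 arrays, by Pearson's r of the log2 deviations from the group means, as a description. Nearest to Gabra6 were Chn2 (r = 0.93), Fat2 (0.92) and Itpr1 (0.87), where Fat2 is one of the granule cell markers and Itpr1 is strong in Purkinje cells. Gabra4 was nearest to Vcam1 (0.90), Snap25 (0.89) and Celf2 (0.88). Celf2 was also among the 3 nearest to Gabra2 (0.85) and Gabra5 (0.87), whose other neighbours were Pdcl (0.88), Rab1a (0.87), Rasgrp1 (0.88) and Cat (0.88). All arrays contribute here, so the spike-in level is shared by these patterns. Among the 15 low arrays r was taken on the log2 signals themselves, with group differences left in. It is therefore another measure than r of the deviations over 24 arrays. For the pairs named here it ran from 0.36 (Gabra5 and Rasgrp1) to 0.92 (Gabrb1 and Abi2). By that measure Celf2 had r = 0.86 with Gabra2, 0.84 with Gabra4 and 0.48 with Gabra5. Gabrd was nearest to Atp2a3 (0.86), Hpcal1 (0.86) and Tagln3 (0.83). Nearest to Gabrb2 were Polr1d (0.78), Naca (0.77) and Ly6al (0.76), and to Gabrb1 Abi2 (0.78), Gde1 (0.73) and C9h2orf69 (0.67).

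Of 12 other GABA-A subunit genes listed, 6 were tested, and 0 rose or fell in any exposed group. Over all probe sets 0% to 0.0406% were called in these 4 comparisons. A count of 0 in this list or the lists below therefore says nothing particular about its genes. Gabra3, the alpha subunit of brainstem and monoamine nuclei, came nearest, at 54.4 ± 18.3 (SD, n = 3, from 34.7 to 70.8) after 10 halothane exposures against 67.7 to 110.2 on the 12 controls. The groups overlapped, and the log2 fold change was -0.66 ± 0.18 (SE, unadjusted p = 0.0016, adjusted p = 0.275). Its log2 fold changes were -0.33 after 5 halothane exposures and -0.10 and -0.38 after 5 and 10 isoflurane exposures. For Gabrr1, Gabrg1 and Gabrg3 the estimates with the lowest p were -0.43 and 0.41 after 10 halothane and 0.16 after 5 isoflurane exposures. The median log2 fold change of these 6 genes lay between -0.013 and 0.11 in the 4 comparisons, beside -0.033 to 0.006 over all probe sets, and that of the 7 subunit genes between -0.12 and 0.20.

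Genes that make, pack, take up or break down GABA had 7 of 9 members tested and 0 called in each exposed group. Of all probe sets 0% to 0.0406% were called in these comparisons. Gad1, the main GABA-synthesising enzyme, was at 1041 ± 145 (SD, n = 3) after 10 isoflurane exposures and 819 ± 101 (SD, n = 12) in control, a log2 fold change of 0.35 (adjusted p = 0.533). Slc6a11, an astrocytic GABA transporter, was at 128 ± 14.4 after 5 halothane exposures against 182 ± 38.9 in control (log2 fold change -0.48, adjusted p = 1). The vesicular transporter gene Slc32a1 was at -0.22 after 10 halothane exposures and Aldh5a1, which oxidises a GABA breakdown product, at -0.15 after 5.

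Of the receptor's scaffold, trafficking and modulator genes 7 of 15 were tested and 0 called (0% to 0.0406% of all probe sets). Dbi, the diazepam binding inhibitor, ran from 557 to 679 after 10 isoflurane exposures and from 457 to 561 in control (log2 fold change 0.20, adjusted p = 0.455), and Gphn, the scaffold gephyrin, at -0.31 after 5 halothane exposures. Plcl1 was at 0.33 after 10 halothane and Gabarap at 0.21 after 10 isoflurane exposures. The GABA-B receptor genes had 2 of 2 tested and 0 called, with Gabbr2 at -0.14 and Gabbr1 at -0.20 after 10 isoflurane exposures.

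Among genes of the chloride gradient 6 of 9 were tested and 0 called (0% to 0.0406% of all probe sets). After 5 halothane exposures Slc12a4 was at -0.44 and the channel gene Clcn3 at 0.14. After 10 halothane exposures Slc12a2, a chloride importer, was at 0.24 and Slc4a3 at -0.16. Of the glutamate and glycine receptor genes, the other fast ligand-gated channels, 17 of 18 were tested and 0 called, beside that same share. Grin2a (-0.76), Gria1 (0.47) and Gria4 (0.72) after 10 halothane exposures and Grin2b (-0.27) after 10 isoflurane exposures had the lowest p-values.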

How the data were processed

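The deposited values are intensities, 1 for each probe set on each array, and are not on a log scale. The authors' steps of summary and scaling are not given in the sources used here. Trimmed means of all arrays lay between 150.1 and 150.2, so the deposited scaling was kept. Control probe sets (59, spike-ins among them) were removed. Values under 16.5 were set to 16.5, log2 was taken, and probe sets above 16.5 on at least 3 arrays were kept (7389). Fold changes of dim probe sets are therefore understated. Groups were compared with limma 3.58.1 in R 4.3.3 (two-sided, eBayes with an intensity trend) on all 24 arrays in 5 groups, corrected by Benjamini-Hochberg; correlations used SciPy 1.17.1 and Python 3.11.15. The fit was tested on simulated data with shifts put into the group of 10 halothane exposures. Of log2 shifts of 1, 77% were called, and of shifts of 2, 98%, with 8 false calls. Smaller shifts were not simulated, so the share found at the size of most estimates here is not known. No pair of arrays had identical values (r between 0.931 and 0.978). The number of arrays limits the precision, and the median 95% interval reached 0.41 on the log2 scale to either side against control.

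Same-numbered arrays deviated together in part. The lowest correlation of their deviations from group means was -0.18 to -0.0053 between exposed groups and control and 0.087 to 0.29 between exposed groups, over 0.1 in 4 of 6 pairs of exposed groups, where replicate 3 shares the high spike-in level. The labels do not say what a number marks.

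Members and lists were chosen with earlier results of these data known. All probe sets of the members were named, with up to 4 genes per list by lowest p over the comparisons with control, and the 3 genes of most similar pattern per member. The spike-in level as a tested term was chosen after seeing the data. Symbols are from the platform annotation, and all 7 members were found by Entrez identifier in RefSeq.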

Additional observations from a re-analysis of the deposited data

How the results depend on the processing

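The count of called subunit probe sets was 0 in each of the 10 comparisons, and stayed at 0 under all 14 other settings and in all 24 fits with 1 array left out (380 of 380 counts). The settings were floors at 5.5 and 37.7 (the 10th and 40th percentiles), quantile normalization, median centring, no filter, a strict filter, no intensity trend, array weights, a fit of the compared groups only, removal of controls 10 to 12, the spike-in level or the replicate number as a block, and low or high spike-in arrays alone. With the replicate number as a block 0 were called, and the log2 fold change of Gabra6 after 10 halothane exposures was 1.14 (adjusted p = 0.157). Replicate numbers above 3 occur only among controls, so that block sets the exposed groups against controls 1 to 3 alone. It turned the sign of 19 of the 44 estimates against control, none of them called. Gabra2 went to 0.22, 0.30, 0.46 and 0.34 after 5 and 10 halothane and 5 and 10 isoflurane exposures, and the dim Gabra4 probe set from 0.32 to 1.17 after 10 halothane exposures. Low spike-in arrays alone turned 17 of 44 signs, and the spike-in level as a block turned 1. High spike-in arrays alone hold 1 array per exposed group, and their spread rests on the 5 controls. Over all settings and fits the log2 fold change of Gabra6 after 10 halothane exposures ran from 0.47 to 1.72, and its lowest adjusted p was 0.157. Of 4190 log2 fold changes under other settings, 4026 moved by less than 1 SE, 164 by more, and 0 became called. Many of them could not move. A difference of group means stays the same when an array of another group, or the intensity trend, is left out. Some also put the second probe set of a gene in place of the first. The count is therefore no measure of how steady the estimates are. Dim signals limit the second probe sets of Gabra4 and Gabra5.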
